A study of Caenorhabditis elegans with 6 samples.

Results

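The groundhog (grd), ground-like (grl), hog and quahog (qua) genes encode secreted hedgehog-related proteins of *C. elegans*. Members were taken by gene symbol from the platform annotation, with 1 probe set per gene that names no other gene, and where a gene has several the one with the highest mean over the 6 arrays was used. This gave 44 of the 17138 genes measured, namely 30 ground-like genes, 12 groundhog genes, *hog-1* and *qua-1*. RefSeq lists 51 genes with such names. The probe set of *grl-32* also names other genes, and *grd-4*, *grd-6*, *grd-13*, *grd-15*, *grd-17* and *grl-26* were not analysed here.

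RNA of whole worms was hybridized to the Affymetrix *C. elegans* genome array, with 3 arrays for *hs*::*ΔNTbar-1* animals and 3 for *hs*::*control* animals. In *hs*::*ΔNTbar-1* animals an integrated transgene makes Myc-tagged BAR-1, a beta-catenin that lacks its amino terminus here, when a heat shock promoter is induced. In *hs*::*control* animals the integrated transgene is the empty heat shock vector. Both transgenes also hold *mec-7*::*GFP* and *dpy-20(+)*, and the control strain was made by injection into *dpy-20(e1282)* animals. Each condition is a single strain, so other differences between the strains cannot be told apart from a response to ΔNTBAR-1. Animals of both strains were grown at 20° for 24 hr from arrested first-stage larvae to the L2/L3 molt, given a 30 min heat shock and, after 60 min of recovery, used for RNA. The temperature of the heat shock was 38° by the methods, while the labels have 30°. No sample without heat shock was compared. Because whole animals were used, a change in the number of cells of a type and a change in RNA per cell cannot be told apart.

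*C. elegans* has no ortholog of the hedgehog ligand of flies and vertebrates. It has instead several families of secreted proteins with a family-specific amino-terminal domain, such as the Ground domain of the groundhog proteins, and some of these proteins also hold a carboxy-terminal Hint (Hog) domain, which in hedgehog proteins cuts the protein and attaches cholesterol to its signaling part. Ground-like proteins carry the related ground-like domain. Many of these genes are transcribed in epidermis, glia and other cells that face the cuticle, often in step with the molts, and *qua-1* is required for molting.

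Pairs of arrays had a correlation over probe sets (which are no independent replicates) of 0.979 to 0.981 inside a group and 0.973 to 0.976 across groups. *bar-1*, the gene on the transgene, had a signal of 7755 to 20991 on the *hs*::*ΔNTbar-1* arrays and of 519.5 to 586 on the *hs*::*control* arrays, so each array was on the side of its label. *mec-7* and *dpy-20*, of which both transgenes hold sequence, differed in opposite directions. *mec-7* had a mean of 1415 against 2308 and was lower on all 3 *hs*::*ΔNTbar-1* arrays. *dpy-20* had a mean of 936 against 580 and was higher on all 3. Neither difference passed the adjusted test described below. Values are MAS 5 signals, a measure of hybridization per probe set on a linear scale that the authors scaled to the same trimmed mean on each array. Signals of different probe sets do not rank genes by their transcript level. Fold changes are differences of mean log2(signal + 16) between *hs*::*ΔNTbar-1* and *hs*::*control* arrays, which understates those of dim probe sets, and a probe set is called dim here if its mean signal was below 76.9, the 40th percentile of all probe sets. SE is limma's standard error, and values of a group stand in the order of replicates 1, 2 and 3. Tests are limma's, two-sided, with Benjamini-Hochberg adjustment over 22548 probe sets. With 3 arrays in each group precision is limited, and 0.1 is the smallest p that exact permutation could reach.

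PCR primers were designed in the study for 3 members, *hog-1*, *grl-10* and *grl-21*. Each pair is shown, forward then reverse, because it is the sequence by which that transcript can be measured apart from the array. Their places in the transcripts were not looked up, and no PCR value was analysed here.
*hog-1* (W06B11.4) forward: tttacaaaggaaaatttcgccaac
*hog-1* (W06B11.4) reverse: tagtaatcggattgtaaccgtgtg
*grl-10* (C26F1.5) forward: atgatcgagaacatcagcgac
*grl-10* (C26F1.5) reverse: acgttgtcagccctcttgtt
*grl-21* (ZC168.5) forward: ttatcaagaagggaatgacatcagg
*grl-21* (ZC168.5) reverse: gaatcggaagaagcgaggta

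One gene of the 44, *hog-1*, rose at an adjusted p under 0.05, where 0.443% of all genes did, and no member fell (0.286% of all genes, and 0.729% in either direction). At an unadjusted p of at most 0.05, 11 members were higher (7.25% of all genes) and 5 lower (6.69%), together 36.4% of the members and 13.9% of all genes. The study's criteria ask for a 2-fold mean difference, an analysis of variance p no larger than 0.05 and agreement in direction, read here as 2 or more *hs*::*ΔNTbar-1* arrays beyond the control mean. Applied here to log2(signal + 16), they counted *hog-1* and *grd-2* as higher (0.782% of all genes) and *grl-21* as lower (0.572%). Together this is 6.82% of the members and 1.35% of all genes. The 3 *hs*::*ΔNTbar-1* arrays all lay above the 3 *hs*::*control* arrays for 13 members (29.5%, against 11% of all genes) and all below for 5 (11.4%, against 10.5%), which is 40.9% of the members and 21.5% of all genes. The median log2 fold change was 0.14 over the members and 0.00061 over all genes, 28 members lay above 0 (63.6%, against 50.1% of all genes) and 16 below, and the members ranged from -1.82 for *grl-21* to 1.19 for *hog-1*. These counts describe the members, which were chosen with earlier results of these arrays known.

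**Figure D1:**
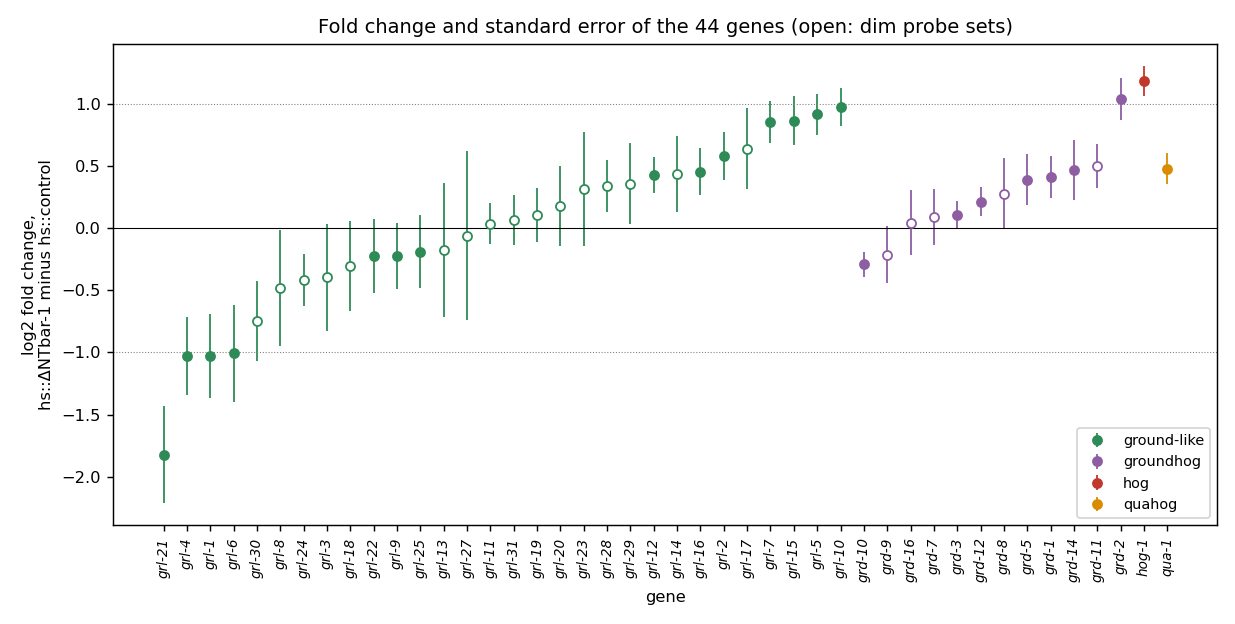
Log2 fold change (*hs*::*ΔNTbar-1* minus *hs*::*control*, n = 3 arrays per group) of each of the 44 genes on the vertical axis, ordered within class, with bars of 1 standard error in limma; open symbols are dim probe sets and dotted lines mark a 2-fold change. The 12 groundhog genes lie between -0.29 and 1.04, while the 30 ground-like genes spread from -1.82 to 0.97.

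*hog-1*, the hog gene of this list, encodes a protein with a Hint domain. Its signal was 751, 798 and 759 in *hs*::*ΔNTbar-1* animals, against 372, 314 and 305 in *hs*::*control* animals. The groups were far apart and each was narrow, with a mean of 769 ± 25.1 (SD, n = 3 arrays) against 329.97 ± 36.3. On the log2 scale *hog-1* was higher by 1.19 (SE 0.12, adjusted p = 0.0150 in limma), or 2.28-fold. The change was 1.13 to 1.27 when any 1 array was left out, but no such fit gave a call (adjusted p from 0.0520 to 0.0860).

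*qua-1*, the quahog gene of this list, is needed for normal molting in *C. elegans*. Its signal was 2223, 1923 and 2247 in *hs*::*ΔNTbar-1* animals and 1661, 1427 and 1484 in *hs*::*control* animals. The groups did not overlap, and the difference of 0.48 on the log2 scale (SE 0.12) did not pass the test (adjusted p = 0.185 in limma). Its probe set is of a type that can bind several transcripts.

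Of the 12 groundhog genes, 10 were above 0 and 2 below, with a median log2 fold change of 0.25. *grd-2* had the largest difference among them. It had signals of 270.0, 229 and 174 with ΔNTBAR-1 and of 103, 93.9 and 102 in the controls. All *hs*::*ΔNTbar-1* arrays were higher, and they differed among themselves far more than the controls did. At a log2 fold change of 1.04 (SE 0.17, adjusted p = 0.0661 in limma), *grd-2* met the study's criteria but not the adjusted test. With a pseudocount of 64 its value was 0.80, which passed the test (adjusted p = 0.0320) but not the criteria, and without *hs*::*ΔNTbar-1* replicate 1 it was 0.90 (adjusted p = 0.177) and met neither.

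*grd-3* and *grd-10* are neighbors in the RefSeq gene order. The promoter of *grd-10* is widely used to mark seam cells, the stem-like cells of the lateral epidermis. Signals of *grd-10* were 2376, 2521 and 2362 in *hs*::*ΔNTbar-1* animals and 3014, 2935 and 2936 in *hs*::*control* animals. The groups were apart with little spread, and *grd-10* had the lowest value of the groundhog genes at -0.29 (SE 0.10, adjusted p = 0.286 in limma). For *grd-3* the signals were 3919, 4339 and 4557 against 3832, 4117 and 3940.0, which overlap (0.11, SE 0.11, adjusted p = 0.741). Of 4 seam cell markers measured out of 6 listed (*ceh-16*, *elt-1*, *egl-18* and *rnt-1*), 2 were above 0 and 2 below, none at an unadjusted p of at most 0.05, and their summed signal was 1336 to 1817 in *hs*::*ΔNTbar-1* and 1454 to 1725 in *hs*::*control* animals.

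The other 9 groundhog genes had log2 fold changes from -0.21 to 0.50, with adjusted p values of 0.309 to 0.964. Among them *grd-1* (0.41), *grd-5* (0.39), *grd-12* (0.21) and the dim *grd-11* (0.50) were higher on all 3 *hs*::*ΔNTbar-1* arrays. Of *grd-5* this holds by a narrow margin, with 1715.9 on the lowest *hs*::*ΔNTbar-1* array and 1715.2 on the highest control array. *grd-14* was at 0.47 (SE 0.24), and its groups overlapped.

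**Figure D2:**
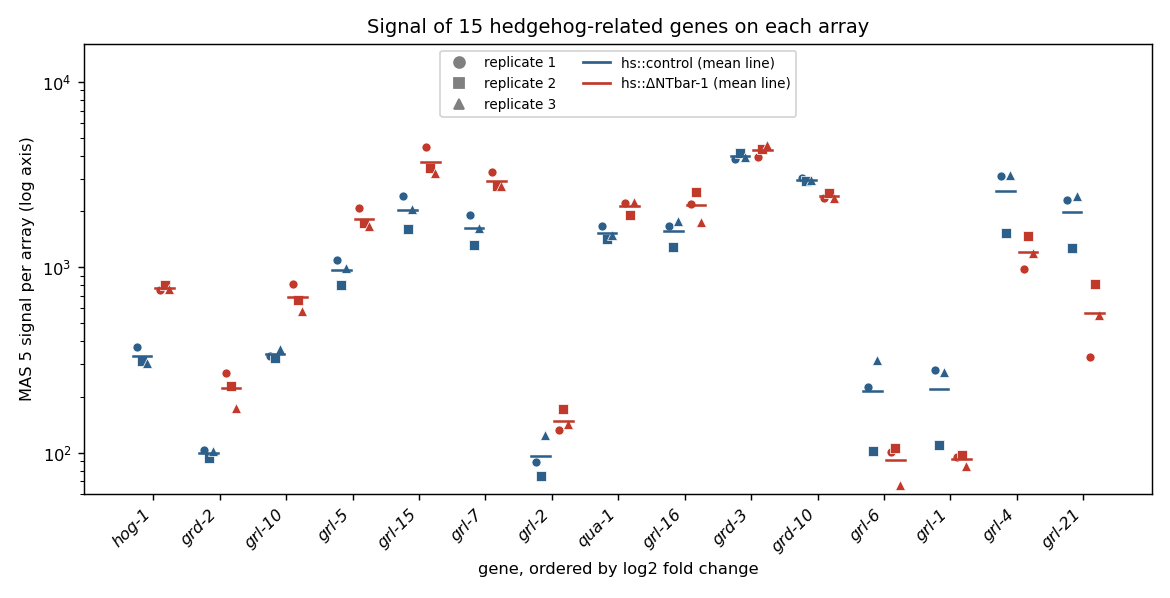
MAS 5 signal on each array (log axis) for the 15 members described with all their values, ordered by log2 fold change; symbols give the replicate number, colors the strain and horizontal lines the mean of 3 arrays. *hog-1* has narrow groups (305 to 372 and 751 to 798), whereas *grl-21*, *grl-4*, *grl-1* and *grl-6* have wide control groups in which replicate 2 lies lowest.

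The ground-like genes split in both directions, with 16 above 0 and 14 below. In the upper part, 4 genes stood close together, at log2 fold changes of 0.85 to 0.97 with adjusted p values of 0.0603 to 0.150. *grl-10* was at 812, 670 and 579 with ΔNTBAR-1 and at 331, 323 and 363 in the controls. The groups were well apart. Its log2 fold change of 0.97 (SE 0.15, adjusted p = 0.0603 in limma) met neither the test nor the 2-fold rule as applied here. The ratio of its mean signals with no pseudocount was 2.03. The paper lists *grl-10* and *hog-1* among its up-regulated genes on the array, and its methods describe RMA values for the statistics. It retested most of its up-regulated genes by PCR, and a minority of them rose reproducibly. Neither *grl-10* nor *hog-1* is in its main table of the genes kept after that PCR.

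*grl-5* had signals of 2099, 1726 and 1668 in *hs*::*ΔNTbar-1* animals and of 1099.5, 802 and 994 in the controls (0.92, SE 0.16, adjusted p = 0.0830 in limma). For *grl-15* they were 4428, 3445 and 3230 against 2407, 1615 and 2073 (0.87, SE 0.20, adjusted p = 0.150). For *grl-7* they were 3278, 2752 and 2751 against 1915, 1323 and 1634 (0.85, SE 0.17, adjusted p = 0.109). In all 3 genes, as in *grl-10* and *grd-2*, *hs*::*ΔNTbar-1* replicate 1 was the highest array. A second probe set of *grl-7* gave 0.88 (adjusted p = 0.109), and the probe sets of *grl-5* and *grl-7*, like those of *grl-4* and *grl-16*, are of a type that can bind several transcripts.

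Further ground-like genes had smaller differences. *grl-2*, whose promoter is active in the excretory duct and pore and in socket glia, was at 132, 172 and 143 in *hs*::*ΔNTbar-1* and 88.8, 74.7 and 124 in *hs*::*control* animals. The gap between the groups was small (0.58, SE 0.19, adjusted p = 0.277 in limma). *grl-12* was at 0.43 (SE 0.14, adjusted p = 0.277) with groups that did not overlap. *grl-16* had 2184, 2533 and 1758 against 1659, 1279 and 1768, which overlap by 1 array (0.45, SE 0.19, adjusted p = 0.380).

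At the lower end, 4 ground-like genes had log2 fold changes below -1, and none of them passed the test. *grl-21* had the largest difference of all members. It had signals of 328, 814 and 553 with ΔNTBAR-1 and of 2298, 1266 and 2410 in the controls, with a mean of 565 ± 243 (SD, n = 3 arrays) against 1991 ± 630. The groups were apart but each was wide, and the log2 fold change of -1.82 had a standard error of 0.39 (adjusted p = 0.132 in limma). It met the study's criteria as lower. Leaving out any one of 3 arrays, namely replicate 3 of *hs*::*ΔNTbar-1* and replicates 1 and 3 of *hs*::*control*, ended this.

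*grl-4* was at 981, 1476 and 1189 in *hs*::*ΔNTbar-1* animals and at 3085, 1532 and 3157 in the controls (-1.03, SE 0.32, adjusted p = 0.245 in limma). *hs*::*control* replicate 2 was close to the *hs*::*ΔNTbar-1* arrays. *grl-1* was at 95.0, 96.6 and 84.5 against 278, 110.2 and 271 (-1.03, SE 0.34, adjusted p = 0.266). *grl-6*, which was added to the genes described in full after its values were seen, was at 101, 106 and 66.8 against 227, 102.5 and 317 (-1.01, SE 0.39, adjusted p = 0.343), and here *hs*::*control* replicate 2 lay within the *hs*::*ΔNTbar-1* group.

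In these 4 genes *hs*::*control* replicate 2 was thus the lowest control array. The difference from the mean of the other 2 control arrays was -0.89 for *grl-21*, -1.02 for *grl-4*, -1.20 for *grl-1* and -1.26 for *grl-6* on the log2 scale. Without that array their log2 fold changes were -2.12, -1.37, -1.43 and -1.43, *grl-1* passed the test (adjusted p = 0.0432 in limma), and all 4 met the study's criteria as lower where 1 had before. Without *hs*::*control* replicate 1 or 3 instead, no member met them as lower, with *grl-4* at -0.87 and -0.85, *grl-1* at -0.82 and -0.84 and *grl-6* at -0.91 and -0.68 (adjusted p from 0.441 to 0.556). The same array was also the lowest control for 6 of the 7 genes described above whose log2 fold change exceeded 0.5 with groups apart, *hog-1* being the exception, so that its lower values widen the difference for those genes and narrow it for the 4 at the lower end. It was the lowest control for 25 of the 44 members (56.8%), for 23 of the 44 other genes of the hedgehog-related pathway (52.3%) and for 33.3% of all genes. Its median difference from the other controls was -0.0017 on the log2 scale over all genes and -0.12 over the members.

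**Figure D3:**
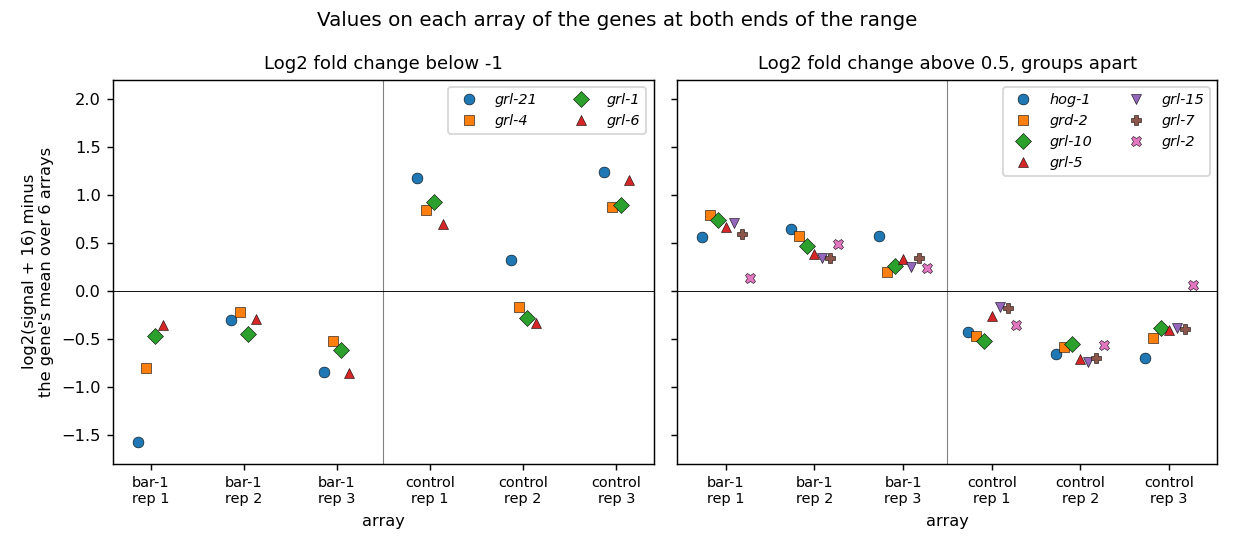
Each gene's log2(signal + 16) on each array, minus its mean over the 6 arrays, for the 4 genes with a log2 fold change below -1 (left) and the 7 genes above 0.5 whose groups do not overlap (right). On the left *hs*::*control* replicate 2 lies below the other controls for all 4 genes, and on the right it is the lowest control for 6 of 7.

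Of the 44 members, 21 were dim (16 ground-like and 5 groundhog genes), with mean signals of 4.87 to 58.3. Their log2 fold changes ranged from -0.75 to 0.64 with a median standard error of 0.31, against 0.19 for the 23 other members, and no adjusted p was below 0.309. In 2 of these 21 the groups did not overlap, the higher *grd-11* and the lower *grl-24*, whose signals of 1.1 to 16.5 are near the bottom of the scale. This is 9.52% of the dim members. The share over all genes, 21.5%, covers dim and other genes together and is no like measure. Of all 17138 genes, 10175 were not dim. These held 1532 of the 1884 genes higher and 1413 of the 1804 lower with groups that did not overlap. The other 6963 genes were dim and held the rest. The share among dim genes was thus below 21.5%, so the 9.52% cannot be read as low for dim members. Of the 23 members that are not dim, 12 were higher and 4 lower on all 3 *hs*::*ΔNTbar-1* arrays. Whether the dim genes are transcribed at this stage was not detectable from these signals. *grl-18*, known from socket glia of the head, was among them, with overlapping signals of 6.1 to 42.0. The last 3 members that are not dim, *grl-9*, *grl-22* and *grl-25*, lay at -0.22, -0.23 and -0.19 with overlapping groups.

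Members that neighbor each other in the genome had values of both signs. *grl-28*, *grl-29*, *grl-30* and *grl-31* lie within a short run of genes on 1 clone, and all of them were dim, at log2 fold changes of 0.34, 0.36, -0.75 and 0.07. *grl-9* and *grl-8*, which are adjacent, were at -0.22 and -0.48, with a standard error of 0.47 for *grl-8*, whose signal was 68.4 on *hs*::*control* replicate 1 and 9.2 to 14.7 on the 5 other arrays. Chromosome V holds 25 of the 44 members, among them *grl-10*, *grl-5*, *grl-7*, *grd-2*, *grl-1* and *grl-2*. The share of all measured genes on that chromosome was not counted. Of the other genes described in full, *hog-1* and *grl-6* lie on X, and *grl-21*, *grl-4*, *grd-3* and *grd-10* on IV. *grl-15* lies on III, *qua-1* on II and *grl-16* on I. In 5 members a second probe set was present, and those of *grd-1* (0.83), *grl-20* (-0.08), *grl-25* (0.05) and *grl-29* (-0.06) were dimmer and did not pass either (adjusted p of 0.451 to 0.974).

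**Figure D4:**
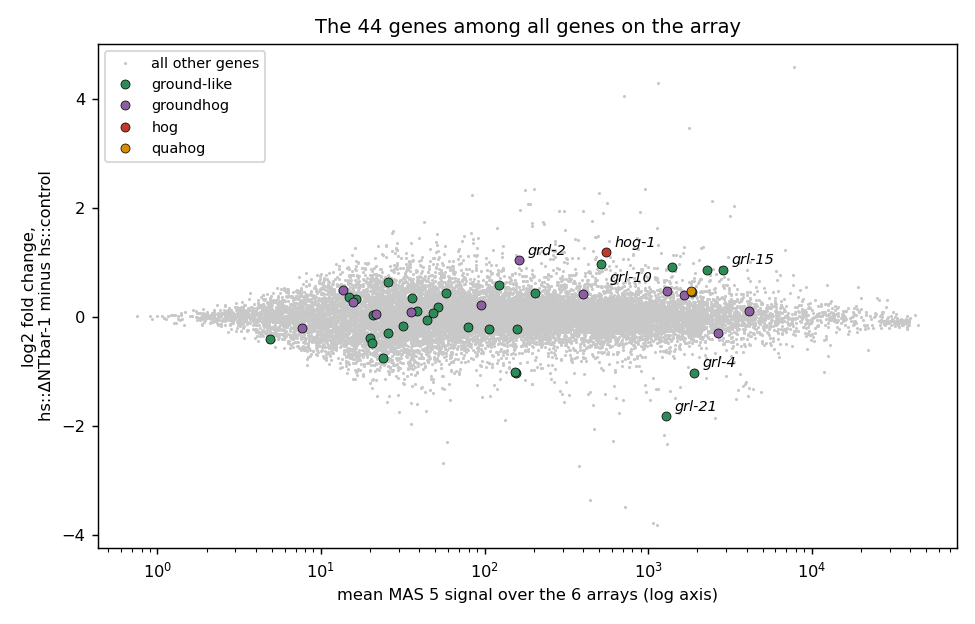
Log2 fold change (*hs*::*ΔNTbar-1* minus *hs*::*control*) against the mean MAS 5 signal over the 6 arrays (log axis) for all genes (grey) and the 44 members (colored by class). *hog-1* at 1.19, *grd-2* at 1.04 and *grl-21* at -1.82 lie outside the dense part of the cloud at their signal. *grl-4*, *grl-1* and *grl-6*, at -1.03, -1.03 and -1.01, lie about as far from the middle as *grd-2*.

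Other genes of the hedgehog-related pathway were taken as a list of 44 genes, made up of 10 warthog genes, 27 Patched and Patched-related membrane proteins and 7 others. In worms the Patched-related proteins resemble the hedgehog receptor of flies and vertebrates, and many of them act in molting and cuticle formation. Of this list, 1 gene rose at an adjusted p under 0.05 (0.443% of all genes) and none fell (0.286%). At an unadjusted p of at most 0.05, 18 were higher and 2 lower (7.25% and 6.69% of all genes). With groups that did not overlap, 18 were higher and 3 lower (11% and 10.5% of all genes). The median log2 fold change was 0.18. The gene that rose was *wrt-6*, a warthog gene, with 817, 745 and 728 against 433, 379 and 376 (0.92, SE 0.12, adjusted p = 0.0332 in limma). It was not called with any 1 array left out, after centring of each array on its median, with a pseudocount of 1 or with the replicate number as a block. By the study's criteria *wrt-4* and the dim *ptr-19* (1.36, adjusted p = 0.139) counted as higher and no gene of the list as lower.

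Of the 10 warthog genes, 9 were above 0. *wrt-4*, another warthog gene, was at 1039, 1102.5 and 749 against 456, 435 and 445 (1.07, SE 0.17, adjusted p = 0.0618 in limma). Of the 27 Patched and Patched-related genes, 14 were above 0 and 13 below. Among them *ptr-18* was at 0.94 (SE 0.15, adjusted p = 0.0618) and *daf-6*, which shapes the channel of sensory glia, at 0.87 (SE 0.18, adjusted p = 0.117). *ptc-3*, a Patched homolog, was at 0.70 (adjusted p = 0.137) and *ptc-1* at -0.07 (adjusted p = 0.871). Lower on all 3 arrays were *ptr-22* (-0.59, adjusted p = 0.232), *ptr-12* (-0.51, adjusted p = 0.226) and *ptr-8* (-0.25, adjusted p = 0.416). *che-14*, a Dispatched-like gene that acts in apical secretion, was at 0.35 (adjusted p = 0.302), and *tra-1*, the Gli-type transcription factor of sex determination, at -0.16 (adjusted p = 0.739).

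Since many hedgehog-related genes are transcribed in step with the molts and the animals were near one, molt genes were measured beside them. Of 29 genes measured from a list of 30 for molting and cuticle collagens, none passed the test in either direction. At an unadjusted p of at most 0.05, 8 were higher and 2 lower (7.25% and 6.69% of all genes), and the groups did not overlap for 9 higher and 3 lower genes (11% and 10.5% of all genes). The regulators *nhr-23*, *nhr-25* and *lin-42* were at -0.07, 0.04 and -0.04, while *myrf-1* was at -0.23 (adjusted p = 0.435), lower on all 3 arrays, *blmp-1* at 0.08 and the dim *grh-1* at -0.20. *mlt-10*, a molting gene that met the study's criteria, was at 1.13 (SE 0.24, adjusted p = 0.130 in limma), the collagen gene *sqt-1* at 0.77 (adjusted p = 0.0650), *mlt-7*, a peroxidase gene, at -0.76 (adjusted p = 0.196) and *fbn-1*, a fibrillin-like gene of the apical matrix, at -0.58 (adjusted p = 0.177). In the molt list *hs*::*control* replicate 2 was the lowest control for 13 of 29 genes (44.8%, against 33.3% of all genes). Its median difference from the other controls was -0.09. *hs*::*ΔNTbar-1* replicate 2 was the lowest of its group for 18 of 29 (62.1%, against 32.1% of all genes). Its median difference from the other *hs*::*ΔNTbar-1* arrays was -0.15. The part of the molt cycle in the members' values was not tested.

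Summed signals of tissue markers did not overlap between the groups for hypodermis, glia and pharynx. The summed signal of 5 hypodermis markers, 3 of which are also in the molt list, was 40208 to 44477 in *hs*::*ΔNTbar-1* and 33443 to 37131 in *hs*::*control* animals, with *rol-6* and *sqt-3* higher and *elt-3* lower on all 3 arrays. Without the bright collagen genes *rol-6* and *sqt-3* the sum of the other 3 was 5287 to 6180 against 6050 to 6455, which overlaps. That of 4 glia markers, of which *daf-6* and *ptr-10* are also Patched-related, was 2128 to 2492 against 1730 to 1908, with *fig-1*, *vap-1* and *daf-6* higher on all 3 arrays, and without *daf-6* it was 1564 to 1829 against 1356 to 1566, which overlaps. None of these genes passed the adjusted test. The sums of 4 pharynx markers were 8259 to 9640 against 11035 to 12029, with *tnt-4* lower on all 3 arrays, and without *tnt-4* they overlapped (3783 to 5085 against 4524 to 5748). Sums overlapped between the groups for body wall muscle, intestine, neurons and germ line. No marker was at 0 on any array, and *hlh-1* of muscle and *unc-31* of neurons were dim. The part of these tissues in the members' values was not tested.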

How the data were processed

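The deposited table holds linear intensity values of 22625 probe sets on 6 arrays. Detection calls by MAS 5 and statistics on RMA values in Partek are described in the methods, and MAS5 and Partek also stand in the submitters' processing notes. Because the deposited intensity values are linear, unlike RMA values, and have a trimmed mean of 500.2 on each array, they were taken for MAS 5 signal, scaled by the authors. Versions were not given in the sources used here. Groups were taken from the genotype label and replicate numbers from the sample titles, and the paper describes the samples as biological replicates. The table had 0 columns of other samples, and no pair of arrays shared more than 0.297% of its values.

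Affymetrix controls (77 probe sets) were not tested. Of 22548 probe sets tested, 20766 name 1 gene, 887 several and 895 none, and 20701 were matched by gene identifier to RefSeq (assembly WBcel235), as were all 44 members. Signals were tested as log2(signal + 16) with limma 3.58.1 (lmFit, eBayes; R 4.3.3), without the replicate number. The tests were checked on simulated data. The same values were used for the study's criteria. A gene is described with its values on all arrays if the paper names it for the microarray, if it passed the test or the criteria, if its groups did not overlap at a log2 fold change of at least 0.5 in size, if it was among the 6 members with the highest mean signal, or if it is *hog-1* or *qua-1*. Members, lists and this rule were chosen with earlier results of these data known. Alternatives are given in the closing section.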

Additional observations from a re-analysis of the deposited data

How the results depend on the processing

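In none of the settings tried did the log2 fold change of the 15 genes chosen by rule or added to it change sign. Of the 6 fits with 1 array left out, none called *hog-1*, and 23 to 44 probe sets were called in all, against 152 with all arrays. Over those fits 0 members were called higher (1 with all arrays) and 0 to 1 lower, 1 to 3 met the study's criteria as higher and 0 to 4 as lower, the members' median log2 fold change was 0.04 to 0.23, and 0 genes of the pathway list and 0 of the molt list were called. The count of 4 came without *hs*::*control* replicate 2. Leaving out dim probe sets, which tests fewer of them, gave 6 members higher (*hog-1*, *grd-2*, *grl-5*, *grl-7*, *grl-10* and *grl-15*) and 1 lower (*grl-21*), a median of 0.41 over the 23 members left, and 7 pathway and 4 molt genes, with 4.69% of all probe sets called (0.674% with all of them tested). A trended and robust variance model gave 7 higher, which are these and *qua-1*, 1 lower (*grl-21*), and 10 pathway and 6 molt genes, with 3.69% of all probe sets called. A pseudocount of 64 gave 5 higher, 1 by the study's criteria, and 4 pathway and 2 molt genes, with 1.73% called. A pseudocount of 1 gave 4 higher by the criteria and 0 pathway genes. Centring each array on its median gave 2 lower by the criteria (*grl-4* and *grl-21*) and 0 pathway genes. The causes of these differences were not tested.

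With the replicate number as a block, 0 members and 0 pathway genes were called, with *hog-1* at an adjusted p of 0.139, and 2 probe sets in all. Samples with the same number had correlations of 0.07, -0.02 and 0.06 in their deviations from the group means. Those with different numbers had -0.09 to 0.03. Because the deviations of 3 arrays sum to 0 in each group, these values depend on each other. All of them were small, and whether the replicate numbers mark pairs was not tested. With the fold taken as a ratio of mean signals, chosen after seeing the data, *grl-10* also met the criteria (3 higher). Counts of members called were the same after quantile normalization, after averaging the probe sets of each gene and without the types that bind several transcripts (36 members left). Of 220 values of single genes under alternatives, 195 kept their side of the test's threshold, 18 passed it and 7 no longer did. Of these 7, all are *hog-1*. Signals near the bottom of the scale limit what can be said of the 21 dim members.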
